A study of Mus musculus with 33 samples.

Results

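The measurements described here are the counts of 3918 guide RNAs (gRNAs) in 2 libraries of a mouse embryonic stem cell line whose Rpp25 gene carries GFP. All gRNAs of the Rpp25 screen were taken, apart from a placeholder guide, which makes 3918 of the 15672 gRNAs designed for the 4 reporter lines of the study. Of these, 3908 have an interval on mouse chromosome 9 and 10 target the GFP sequence. The 3908 were split into clusters wherever the gap to the next gRNA exceeded 3 kb, which gave 7 clusters.

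Embryonic stem cells are pluripotent cells of the early mouse embryo that can be kept in culture. The Rpp25-GFP line makes Rpp25 with GFP fused to its C-terminus and carries a dummy guide RNA at the ROSA26 locus, into which library gRNAs are exchanged. Cells were grown in serum with LIF, GSK-3 inhibitor XV and UO126, which inhibits the MEK kinases. One population is the bulk after gRNA electroporation, and the other was collected by flow cytometry as GFP-negative cells after the same electroporation. Both populations share the line, the placeholder and the medium, and differ by the sort. The labels do not say whether the line is a single clone. The title of the GFP-negative library names Rpp26, whereas its description and its tagged-gene field name Rpp25, which was followed. The comparison asks where along the chromosome gRNAs take a larger or smaller share of cells without GFP than of all cells.

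The Cas9 nuclease cuts DNA where the spacer of a gRNA pairs with a target that is followed by a short motif called PAM (NGG for this enzyme), and repair of the cut leaves small insertions or deletions. A frameshift before or within the GFP part of a fusion gene removes the fluorescence, and a cut in a regulatory sequence can lower it. Rpp25 is a protein subunit of ribonuclease P, which trims the 5' end of precursor transfer RNAs, and of the related ribonuclease MRP. Its neighbours in the screened region are Scamp5, which encodes a secretory carrier membrane protein, and Cox5a, which encodes a subunit of cytochrome c oxidase in the mitochondrial respiratory chain.

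The sequence just before the gene is given first, since gRNAs with high counts and gRNAs without any lie side by side in it. RefSeq places Rpp25 on the plus strand at chr9:57504102-57505447 (GRCm38.p6, 1346 bp), and positions below are in bp from the annotated 5' end at 57504102, negative upstream. The 250 bases before that end, at chr9:57503852-57504101 on the plus strand, hold 2 copies of the motif GGGCGG, the GC box, shown in capitals. They start at positions -141 and -122. GGGCGG was searched on both strands, and 32.7% of 32851 RefSeq promoters of the same length hold it.
Rpp25, bases before the 5' end: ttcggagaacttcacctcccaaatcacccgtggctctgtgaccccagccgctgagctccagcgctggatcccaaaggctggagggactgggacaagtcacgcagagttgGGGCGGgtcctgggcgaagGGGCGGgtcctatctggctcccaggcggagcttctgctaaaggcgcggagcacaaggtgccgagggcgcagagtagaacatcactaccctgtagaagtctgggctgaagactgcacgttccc

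The target sites below lie in this stretch, at the 5' end of Rpp25 (chr9:57504099-57504121) or in the matching windows of Scamp5 and Cox5a, and were chosen after their counts were seen, to show strongly counted and absent gRNAs side by side. Each is read from the RefSeq promoter table (GRCm38.p6), 5' to 3' on the strand of the spacer, with the PAM in capitals. Intervals are printed as deposited, where each starts 1 bp before the site that carries the PAM.
chr9:57503865-57503886, minus strand: gagccacgggtgatttgggAGG
chr9:57503898-57503920, minus strand: gatccagcgctggagctcagCGG
chr9:57503905-57503927, plus strand: gctccagcgctggatcccaaAGG
chr9:57503913-57503934, plus strand: gctggatcccaaaggctggAGG
chr9:57503913-57503935, plus strand: gctggatcccaaaggctggaGGG
chr9:57503939-57503960, plus strand: gggacaagtcacgcagagtTGG
chr9:57503939-57503961, plus strand: gggacaagtcacgcagagttGGG
chr9:57503981-57504003, plus strand: gcgggtcctatctggctcccAGG
chr9:57504005-57504026, plus strand: ggagcttctgctaaaggcgCGG
chr9:57504099-57504121, minus strand: gtgaaggttggagggtgggcTGG
Scamp5, chr9:57468226-57468248, minus strand: gcccacctagcacctggacgAGG
Cox5a, chr9:57521245-57521267, minus strand: gtacagcagttcgcgggggcCGG
Cox5a, chr9:57521058-57521079, minus strand: gtagtgaacattcctgcgtGGG

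The bulk library held 74318 gRNA counts and the GFP-negative library 333608, so 1 count is worth 13.5 counts per 1000000 (CPM) in bulk and 3.00 CPM in the GFP-negative library. There is 1 library per population, so no difference below has a replicate check, and no test was made. Intervals are exact 95% binomial (Clopper-Pearson) and cover counting error only, since PCR reads without molecular identifiers are not independent molecules. Shares are relative: a large share of some gRNAs lowers the share of the others. Of the 3918 gRNAs, 1807 had a count in bulk and 362 in the GFP-negative library, and 2111 were at 0 in both. None of the gRNAs without a bulk count was counted in the GFP-negative library. A log2 ratio is log2 of (GFP-negative CPM + 1) over (bulk CPM + 1) for a gRNA and log2 of the ratio of shares for a group, and a fold is a plain ratio of CPM.

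A gRNA is called measured with at least 10 counts in either library, and higher or lower when its log2 ratio corresponds to at least a 4-fold change. Of 1525 measured gRNAs, 86 were higher in the GFP-negative library (5.64%), 1330 were lower (87.2%) and 109 were neither. Below 10 bulk counts a gRNA enters only through its GFP-negative counts. With at least 10 counts required in bulk, 77 were higher and 1330 lower. Most of the lower ones, 1170 of 1330, had no GFP-negative count at all. The 86 higher gRNAs comprised 7 that target GFP, 51 in the Rpp25 gene body, 20 elsewhere in the cluster around Rpp25 and 8 in the other 6 clusters. Among gRNAs with at least 10 bulk counts, 341 of 1511 (22.6%) were detected in the GFP-negative library, which is the background for the detection rates below.

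The gRNAs against GFP cut the reporter itself and are the positive controls of the screen. Together they rose from 606 counts, 0.815% (0.752 to 0.883%) of bulk, to 139999 counts, 42.0% (41.8 to 42.1%) of the GFP-negative library, a 51.5-fold larger share. Numbered in table order, gRNA 10 went from 229 counts (3081 CPM) to 61186 (183407 CPM), a log2 ratio of 5.89. It was the most counted gRNA of the GFP-negative library and alone held 43.7% of the GFP-targeting counts there. GFP-targeting gRNA 4 went from 117 counts to 37968 (log2 ratio 6.17), and gRNA 3 from 51 to 17767 (6.28), a 77.6-fold increase in CPM. GFP-targeting gRNA 2 went from 70 to 6838 counts (4.44), gRNA 9 from 46 to 5931 (4.84), gRNA 6 from 27 to 4974 (5.36) and gRNA 1 from 24 to 4731 (5.45).

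The remaining 3 controls did not reach the 4-fold threshold. GFP-targeting gRNA 8 had 38 counts in bulk and 602 in the GFP-negative library, a 3.53-fold difference in CPM. It was counted well in bulk, so 2 controls with like bulk counts, gRNA 8 at 38 and gRNA 9 at 46, ended at 602 and 5931 counts. GFP-targeting gRNA 7 had 4 and 2 counts, too few to be measured, and gRNA 5 had none in either library. Among the 8 measured controls the fold thus ran from 3.53 to 77.6, and all 8 were detected in the GFP-negative library.

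Only 1 of the 7 clusters, the one that holds Rpp25, had a larger share of the GFP-negative library than of bulk. This cluster of 1734 gRNAs, chr9:57499194-57512091, reaches from -4.91 to 7.99 kb around the 5' end of Rpp25. Its share was 42.0% (41.7 to 42.4%) in bulk and 53.0% (52.8 to 53.1%) in the GFP-negative library, a log2 ratio of 0.33. Of its 661 gRNAs with at least 10 bulk counts, 33.6% were detected in the GFP-negative library, and 71 of its 670 measured gRNAs were higher.

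The other 6 clusters together held 57.2% of bulk and 5.07% of GFP-negative counts (log2 ratio -3.49). Of their 842 gRNAs with at least 10 bulk counts, 13.2% (11.0 to 15.7%) were detected in the GFP-negative library, and 8 of 847 measured gRNAs (0.945%) were higher. Their median bulk count among gRNAs with at least 10 was 38, against 33 in the Rpp25 cluster.

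Going along the chromosome, cluster 1, chr9:57462121-57469099, covers one end of Scamp5 with 750 gRNAs and lies at -42.0 to -35.0 kb from the 5' end of Rpp25. It fell from 21.1% to 2.88% of the counts (log2 ratio -2.87), and 4 of its 306 measured gRNAs were higher. Cluster 2, chr9:57494081-57496117, is intergenic, has 245 gRNAs and ends 7.99 kb before Rpp25. It fell from 5.19% to 0.561% (-3.21), and a single gRNA, chr9:57496072-57496094, supplied 88.6% of what it had in the GFP-negative library. That gRNA went from 17 to 1658 counts, 21.7-fold in CPM, and is the only one of 88 measured in cluster 2 that was higher.

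Downstream, clusters 4 and 5 both lie in Cox5a. Cluster 4, chr9:57520081-57525052, with 650 gRNAs, fell from 16.2% to 1.00% (log2 ratio -4.02), with 3 of the measured gRNAs higher. Cluster 5, chr9:57530081-57532089, with 199 gRNAs, had the lowest ratio of the 7, falling from 5.37% to 0.0815% (-6.04) with none of 73 higher. These Cox5a clusters held 12033 and 3993 counts in the smaller bulk library and 3335 and 272 in the larger GFP-negative one.

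The last 2 clusters are far from the gene. Cluster 6, chr9:58278771-58280479, lies between Stoml1 and Loxl1, begins 774.7 kb after the 5' end of Rpp25 and has 175 gRNAs. It fell from 5.31% to 0.335% (-3.99), and none of its 71 measured gRNAs was higher. Cluster 7, chr9:65195594-65197097, lies 7691 kb away in the long non-coding RNA gene Gm40527 and has 155 gRNAs. It fell from 3.99% to 0.213% (-4.23), again with none of 60 higher. Detection of gRNAs with at least 10 bulk counts was 8.45% in cluster 6 and 13.3% in cluster 7. In clusters 1, 2, 4 and 5 it ran from 12.3 to 15.9%.

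A few gRNAs held much of the GFP-negative counts of each cluster outside Rpp25. Fewer gRNAs were detected there to share the counts. Among those with at least 10 bulk counts, 9, 6 and 8 were detected in clusters 5, 6 and 7, against 222 in the Rpp25 cluster. The most counted gRNA held 23.9% of the GFP-negative counts of cluster 1, 22.5% of cluster 4, 51.5% of cluster 5, 48.6% of cluster 6 and 47.0% of cluster 7, against 6.13% in the Rpp25 cluster. In cluster 1 it was chr9:57464353-57464375, with 79 counts in bulk and 2296 in the GFP-negative library, and in cluster 4 it was chr9:57521431-57521453, with 12 and 751. Those 2 were higher, by 6.47 and 13.9 fold in CPM. In clusters 5, 6 and 7 even the most counted gRNA was not: chr9:57532044-57532066 had 85 and 140 counts, chr9:58278843-58278864 had 291 and 543, and chr9:65195760-65195781 had 75 and 334, a CPM ratio of 0.992.

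At the other extreme are gRNAs that were abundant in bulk and absent from the GFP-negative library. The most counted of them, chr9:57462818-57462840 in Scamp5, had 286 bulk counts and 0 GFP-negative counts, at least 428-fold lower in CPM when 3 counts are set for the 0. By the same 3 counts, which are a limit of their own and not the 2-sided interval used for shares, a count of 0 allows a share of up to 0.000899% of the GFP-negative library. The gRNA chr9:57510208-57510229, after Rpp25 at position 6118, went from 282 to 0 (at least 422-fold lower), and chr9:57524611-57524633 and chr9:57521675-57521696 in Cox5a went from 271 and 234 to 0. In cluster 6, chr9:58280003-58280024 went from 184 to 0, at least 275-fold lower. Absence was therefore not limited to gRNAs that were rare in bulk, nor to the other clusters: within the Rpp25 cluster, chr9:57499740-57499762 at position -4350 went from 180 to 0 and chr9:57510193-57510215 at 6103 from 155 to 0.

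Within the Rpp25 cluster the gain came from the gene and the bases just before it. The 241 gRNAs that touch the gene body took 6.14% (5.97 to 6.32%) of bulk and 37.9% (37.7 to 38.1%) of the GFP-negative library, a 6.17-fold larger share (log2 ratio 2.63). Of 123 measured gRNAs in the gene body 51 were higher (41.5%) and 41 were lower. Some of the higher ones were measured only through their GFP-negative counts. These were chr9:57504258-57504280, chr9:57504373-57504394, chr9:57504720-57504742 and chr9:57504800-57504821, with 5, 6, 5 and 2 bulk counts. The 95 gRNAs in the 500 bp before the 5' end went from 2.91% to 6.37% (log2 ratio 1.13), with 11 of 44 measured gRNAs higher and 20 lower. In this zone the most counted gRNA held 17.5% of the GFP-negative counts, and the top 5 held 63.4%. Of the higher ones here, chr9:57503639-57503661 and chr9:57503647-57503669 entered only in that way, with 4 and 2 bulk counts. These 2 zones held 83.6% of the GFP-negative counts of the cluster, and with the GFP-targeting gRNAs they made up 9.87% of bulk and 86.2% of the GFP-negative library.

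The rest of the cluster fell. The 600 gRNAs farther upstream went from 16.1% to 3.56% (log2 ratio -2.18), and the 798 gRNAs downstream of the gene from 16.9% to 5.14% (-1.72). Among their 503 measured gRNAs 9 were higher. Even so, the ratio of both flanks was above that of every cluster without Rpp25, whose log2 ratios ran from -6.04 to -2.87. A few gRNAs carried the flanks too. The most counted held 25.9% of the upstream and 29.0% of the downstream GFP-negative counts, and the top 5 held 75.6% and 71.3%. Within the flanks, the 500 bp from -4500 were at -8.72 and those from 7500 at -10.84. Of gRNAs with at least 10 bulk counts, 25.1% of the upstream and 18.2% of the downstream flank were detected in the GFP-negative library, against 71.8% (62.7 to 79.7%) in the gene body and 73.8% (58.0 to 86.1%) in the 500 bp before it.

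Detection in the GFP-negative library was mostly more frequent at larger bulk counts, so it was also compared at matched bulk counts. For gRNAs with 20 to 49 bulk counts, 40 of 56 were detected in the gene body, 10 of 14 in the 500 bp before it, 36 of 213 in the rest of the cluster and 34 of 376 in the other clusters. For those with 100 to 291 bulk counts, the numbers were 5 of 6, 4 of 4, 24 of 51 and 18 of 81. The gene body and the 500 bp before it thus had the higher detection in both classes. The counts of the detected gRNAs differed as well: with 20 to 49 bulk counts their median GFP-negative count was 644 in the gene body, 72.5 in the 500 bp before it, 40 in the rest of the cluster and 11 in the other clusters. In the same order, the medians were 270.5, 289, 43.5 and 26.5 with 10 to 19 bulk counts. With 100 to 291 they were 5907, 1285, 31 and 22.5.

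In 500-bp tiles counted from the 5' end, 4 of 26 tiles had a log2 ratio above 0, and 3 of them adjoin. The tile from -500 to -1 was at 1.13, the tile from 0 to 499 at 2.87 (2.72% of bulk and 19.95% of the GFP-negative library) and the tile from 500 to 999 at 3.12 (1.91% and 16.6%). Their neighbours on either side were at -2.10 and -0.54. The fourth, from 6500 to 6999, was at 0.09 through 1 gRNA, chr9:57510913-57510934 at position 6822, which went from 105 to 4981 counts. Of 9 other gRNAs with at least 10 bulk counts within 100 bp of it, 1 was detected in the GFP-negative library and none was higher.

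Finer tiles of 100 bp, looked at after the wider ones, showed how the ratio ran inside the gene. The log2 ratio was 2.00 from 0 to 99, between 2.74 and 3.84 in the 5 tiles from 100 to 599, and 4.16 from 600 to 699, where 9 of 12 measured gRNAs were higher and 11.8% of the GFP-negative library lay. In the next tile, from 700 to 799, it was -1.09 with 0.105% of the GFP-negative library, and 1 of 5 measured gRNAs was higher. Beyond it the ratio was above 0 again from 800 to 899 (0.70), 1000 to 1099 (0.35) and 1100 to 1199 (1.52), and below 0 from 900 to 999 (-0.69), so the drop was not a clean edge. These tiles hold 5 to 11 measured gRNAs each, their boundaries are arbitrary, and exon and coding boundaries were not used here.

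The 111 gRNAs at 100 to 699 bp, a window chosen after the tiles were seen, went from 2.99% of bulk to 32.9% of the GFP-negative library (11.0-fold). Of 59 with at least 10 bulk counts 55 were detected (93.2%), and 41 of 63 measured gRNAs were higher. Since the window was chosen for its high GFP-negative share, these values describe it and support nothing further. The 4 that were not detected were chr9:57504211-57504233 (28 bulk counts), chr9:57504253-57504275 (23), chr9:57504511-57504533 (24) and chr9:57504695-57504717 (12).

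The 30 gRNAs in the first 99 bp of the gene went from 0.659% to 2.63%, with 4 of 15 measured gRNAs higher and 7 of 14 detected. From 700 bp to the annotated end, 100 gRNAs held 2.49% (2.38 to 2.61%) of bulk and 2.37% (2.31 to 2.42%) of the GFP-negative library. Of 45 measured gRNAs there 27 were lower and 6 higher, and 5 gRNAs held 68.0% of the GFP-negative counts. The 6 higher ones were chr9:57504800-57504821, chr9:57504954-57504975, chr9:57504964-57504986, chr9:57505026-57505047, chr9:57505174-57505195 and chr9:57505280-57505302. The last, at position 1190, went from 56 to 1605 counts (6.39-fold) and, like chr9:57505174-57505195 with 44 and 1449 counts, had no higher gRNA within 100 bp.

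Among the 15 gRNAs with the most GFP-negative counts outside the GFP controls, 13 lie in the gene body. The most counted, chr9:57504741-57504762 at position 650, went from 135 counts (1817 CPM) to 10838 (32487 CPM), a log2 ratio of 4.16. Next came chr9:57504341-57504362 at position 250, from 78 to 8070 counts (4.53), and chr9:57504736-57504758 at position 646, from 27 to 7676 (5.98). The last of these had the largest fold of the 15, 63.3, from a low bulk count. The other two of the 15 are chr9:57503898-57503920 before the 5' end and chr9:57510913-57510934 after the gene.

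Folds in the gene body and of the GFP controls overlapped. The gRNAs chr9:57504710-57504731 and chr9:57504425-57504447 had the largest bulk counts of the 15, 126 and 158 beside the 135 above, and reached 6571 and 5907 GFP-negative counts, 11.6-fold and 8.33-fold. GFP-targeting gRNA 4, with 117 bulk counts, reached 37968, 72.3-fold. At lower bulk counts, chr9:57504341-57504362 with 78 reached 23.1-fold beside 21.8-fold for GFP-targeting gRNA 2 with 70, and chr9:57504736-57504758 with 27 reached 63.3-fold beside 41.0-fold for GFP-targeting gRNA 6 with 27. Among the 51 higher gRNAs of the gene body, the largest CPM fold was 76.2, for chr9:57504720-57504742 from 5 to 1711 counts, a ratio that rests on 5 bulk counts.

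Most higher gRNAs in the gene body and in the 500 bp before it had higher neighbours, and those outside both zones had none. For the 51 in the gene body, 53.4% of the neighbouring gRNAs within 100 bp that had at least 10 bulk counts were higher too, and 49 of the 51 had at least 1 such neighbour. For the 11 in the 500 bp before the gene the figures were 17.1% and 9. The 17 higher gRNAs outside both zones had 202 such neighbours in all, of which 16.3% were detected in the GFP-negative library and 0 were higher. Neighbours are counted once for each higher gRNA they adjoin, so the same gRNA can enter more than once. The background is the share of measured gRNAs that were higher in each zone. Unlike the neighbours, measured gRNAs include those that entered only through their GFP-negative counts, so the shares are not fully matched. The background was 41.5% in the gene body and 25% in the 500 bp before it. In the rest of the cluster it was 1.79%, and in the other clusters 0.945%, so few of the 202 neighbours would be higher by those shares alone.

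The 17 isolated gRNAs lie 4 in Scamp5, 1 in the intergenic cluster 2, 4 upstream and 5 downstream of Rpp25 in its cluster, and 3 in Cox5a. Upstream of Rpp25 they were chr9:57500763-57500785 (42 and 2677 counts), chr9:57501448-57501470 (85 and 3071), chr9:57501735-57501757 (17 and 719) and chr9:57503065-57503087 (19 and 1943). Downstream, beside the gRNA at 6822, chr9:57506175-57506197 had 79 and 2430 counts, chr9:57508303-57508325 18 and 688, chr9:57508964-57508985 27 and 1363, and chr9:57510441-57510462 52 and 1437. Their CPM folds, from 4.62 to 41.5 over all 17, overlapped those of the gene body. The 2 largest, 41.5 and 31.0, rest on 6 and 4 bulk counts, and the next was 22.8, from 19. The size of a single gRNA's increase thus did not set the 2 kinds apart. Higher gRNAs were rare outside both zones, so the lack of higher neighbours there cannot set them apart either.

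In the bases before the gene, gRNAs that went up and gRNAs that vanished lay close together. The gRNA chr9:57503898-57503920 at -192 went from 62 counts (834 CPM) to 3719 (11148 CPM), a log2 ratio of 3.74, the largest GFP-negative count before the 5' end. The overlapping gRNA of the other strand, chr9:57503905-57503927 at -185, had 61 bulk counts and 0 GFP-negative counts, at least 91.3-fold lower. With nearly equal bulk counts these 2 overlapping targets thus ended at opposite extremes.

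Pairs whose spacers differ by 1 base in length differed as well. In the pairs given next the PAM also lies 1 base farther along for the longer spacer, so length is not all that differs. At -152, chr9:57503939-57503960 with 19 spacer bases went from 16 to 882 counts (12.3-fold in CPM), while chr9:57503939-57503961 with 20 had 53 and 50, a CPM ratio of 0.210. At -178, chr9:57503913-57503934 had 36 and 89 counts, a CPM ratio of 0.551, and chr9:57503913-57503935, 1 base longer, had 36 and 0. Neither member of the second pair was thus higher. Further towards the gene, chr9:57503981-57504003 at -109 went from 69 to 2733 and chr9:57504005-57504026 at -86 from 35 to 1639, both higher. The farthest higher one in the printed stretch, chr9:57503865-57503886 at -226, went from 17 to 547.

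Such pairs of 22-bp and 23-bp intervals that share a start or an end, both with at least 10 bulk counts, serve as a measure of how far 2 gRNAs at almost the same site can differ. Before the gene there were 8 pairs, of which 6 had both members detected and 2 had 1, and in pairs with both detected the median fold between the members' GFP-negative to bulk ratios was 59.8. In the gene body there were 15 pairs, 8 with both detected, 4 with 1 and 3 with none, and the same median fold was 3.60. In 4 gene-body pairs both members were higher, against 0 of 8 before the gene and 0 of 138 elsewhere. Of measured gRNAs, 41.5% were higher in the gene body and 25% in the 500 bp before it. The share was 1.79% in the rest of the cluster and 0.945% in the other clusters. By those shares alone, few pairs outside the gene body would have both members higher, so the contrast does not measure agreement within pairs. Elsewhere, 8 pairs had both members detected, with a median fold of 52.5, 37 had 1 and 93 had none. The largest fold between members was 493 in the gene body, 727 before the gene and 163 elsewhere. Some nearly identical targets thus differed widely in each zone, but the median fold was far smaller in the gene body than before the gene. Elsewhere most pairs had neither member detected, and the median there rests on 8 pairs. The value of a single gRNA describes that gRNA.

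The 300-bp windows around 3 annotated 5' ends give a side-by-side view of promoters. Those of Rpp25 and Scamp5 lie at the end of the gene span, whereas that of Cox5a lies inside its span, chr9:57517328-57532427. In the Rpp25 window, chr9:57503852-57504151, 19 of 28 gRNAs with at least 10 bulk counts were detected in the GFP-negative library, 7 of 29 measured were higher, and the share went from 1.31% to 3.58% (log2 ratio 1.45). In the Scamp5 window, chr9:57468011-57468310, 1 of 24 was detected, none was higher, and 839 bulk counts stood against 1 GFP-negative count. The printed Scamp5 target went from 84 to 0 counts. In the Cox5a window, chr9:57520982-57521281, 7 of 26 were detected and none was higher, with 1.499% of bulk and 0.219% of the GFP-negative library. Of the printed Cox5a targets, chr9:57521245-57521267 went from 110 to 0, and chr9:57521058-57521079 had 45 and 172 counts, a CPM ratio of 0.852.

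Inside the Rpp25 window the detected gRNAs all lay before position -50 among those with at least 10 bulk counts. There, 19 of 25 were detected and 7 were higher. Around the 5' end itself, from -50 to 50, only 3 gRNAs had at least 10 bulk counts and none of the 3 was detected. One of these is the printed chr9:57504099-57504121, with 22 and 0 counts. Below that minimum, chr9:57504098-57504119 at position 8 had 2 bulk counts and 34 GFP-negative counts. Its CPM ratio of 3.79 rests on 2 bulk counts, and no other gRNA of this part had GFP-negative counts. With 3 usable gRNAs, and 74 bulk counts over the 14 gRNAs there, the counts at the start site are too few to tell it from the bases before it.

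Higher gRNAs lay both over the GC boxes and outside them. Of 16 gRNAs whose target overlaps a GC box, 10 had at least 10 bulk counts, 9 of these were detected and 3 were higher. Of the 42 other gRNAs of the window, 18 had at least 10 bulk counts, 10 of these were detected and 4 were higher. The most counted gRNA over a box reached 2733 GFP-negative counts, and the most counted one outside reached 3719. A match of the motif is a description of the letters and no evidence of a bound factor.

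The Nanog line of the same study also carries GFP as a C-terminal fusion and also has bulk and GFP-negative populations, with 2 libraries of each. There the GFP-targeting gRNAs held 0.564% and 0.575% of the bulk libraries and 10.2% and 12.1% of the GFP-negative ones, against 0.815% and 42.0% in the Rpp25 line. The 718 gRNAs in the Nanog gene body held 13.6% and 15.6% of bulk and 20.7% and 24.2% of the GFP-negative libraries, against 6.14% and 37.9% for the 241 in Rpp25. The Nanog GFP-negative libraries, with 142821 and 196665 counts in all, detected 820 and 817 gRNAs. The Rpp25 one, with 333608 counts, detected 362. In bulk, 1619 and 1612 gRNAs were detected in the Nanog line and 1807 in the Rpp25 line. The lines have different gRNA libraries, and the difference between them was not tested.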

How the data were processed

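The deposited table of the Rpp25 line holds the authors' whole-number gRNA counts per library, and the program behind the counts was not given in the sources used here. Libraries were made by PCR from genomic DNA, per the labels' protocols, and positions are in mm10, per the submitters' processing notes. The placeholder was left out of totals. Other pseudocounts, minimums, gaps and scalings were tried. Counts were scaled to counts per 1000000 (CPM), and 1 CPM was added for log2 ratios of single gRNAs. A gRNA counted as measured with at least 10 counts in either library, and a change of 4-fold was the threshold. With 1 library per population there was no test.

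Adding 1 bp to the deposited intervals placed a PAM at 58 of 58 targets in the Rpp25 promoter window, 47 of 47 in that of Scamp5 and 52 of 52 in that of Cox5a, against 26, 16 and 13 as listed, so positions use the shifted intervals. Gene spans and sequences are from RefSeq (GRCm38.p6). Named were the GFP-targeting gRNAs, the 15 others with the most GFP-negative counts, the most counted per cluster, and the 5 with the most bulk counts at 0 in the GFP-negative library, overall and in the Rpp25 cluster. The printed targets, the isolated gRNAs, the undetected ones, the 100-bp tiles and the subdivisions of the gene body were chosen after values were seen, and the members and lists with earlier results of these data known. Python 3.11.15, numpy 2.4.6, pandas 2.3.3 and scipy 1.17.1 were used, and the code was tested on simulated data.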

Additional observations from a re-analysis of the deposited data

How the results depend on the processing

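The size of a cluster's log2 ratio depended on which other gRNAs were in the total. With the 10 most counted gRNAs left out, clusters 1 to 7 were at -1.88, -2.21, 0.99, -3.02, -5.05, -2.99 and -3.23. With the GFP-targeting gRNAs left out they were at -2.10, -2.44, 1.11, -3.24, -5.27, -3.21 and -3.45. Counting each detected gRNA once gave -0.77, -0.56, 0.54, -0.66, -0.83, -1.45 and -0.75, and 2.32 for the GFP-targeting gRNAs. Leaving out the most counted gRNA of each cluster, an alternative added after the data were seen, gave -3.25, -6.33, 0.29, -4.38, -7.06, -4.84 and -5.11. With at least 10 bulk counts clusters 1 and 4 were at -3.03 and -4.39, and with a gap over 5 kb the Rpp25 cluster was at 0.18. In all of these the Rpp25 cluster alone was above 0.

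Among the 500-bp tiles from -1000 to 2499, those from -500 to 999 kept their sign under every alternative run, and 4 others changed it under some. The tile from -1000 was at 0.46 with each detected gRNA counted once. The tile from 1000 was at 0.46 without the 10 most counted gRNAs, 0.89 with each counted once and 0.24 without the GFP-targeting gRNAs, and the tile from 2000 at 0.30, 0.51 and 0.08. The tile from 1500 was at 0.98 with each counted once. A threshold of 16-fold left 30 higher gRNAs, and a minimum of 50 counts left 448 lower ones. The other counts of gRNAs past the threshold stayed within 1.5 times.

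The depth limits single gRNAs most: 1 bulk count is worth 13.5 CPM, the median bulk count of a detected gRNA was 29, and 108 gRNAs detected in the GFP-negative library had 1 to 9 counts there. No paired analysis was possible because each population has 1 library and no result comes from a test.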

Other observations

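Of the 3918 gRNAs, 2111 had no count in either Rpp25 library, and in the windows with known sequence this went with the first base of the spacer. Among the gRNAs of the 3 promoter windows, 94 of 95 whose spacer starts with G were detected in bulk, and 0 of 53 that start with A, C or T. The exception was chr9:57504104-57504126 in the Rpp25 window. For 9 others the strand was not settled, and none was detected. Over the whole library, 8 of 767 gRNAs with a 22-bp interval were at 0 (1.04%), against 2102 of 3141 with a 23-bp interval (66.9%). In promoter windows of the other lines, 69 of 72 gRNAs with a first G and 0 of 62 without were detected in the Nanog line, and 45 of 45 and 0 of 42 in the Zfp42 line. In the Tdgf1 line 36 of 36 were detected in both classes. Every comparison above therefore rests on the gRNAs that were present in bulk, and targets whose gRNAs were at 0 there were not measured.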
